A study of Homo sapiens with 6 samples.

Results

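The RNA levels of 37 splicing regulators were examined: 12 genes of the SR protein family (SRSF1 to SRSF12), both TRA2 factors, 20 genes named HNRNP for heterogeneous nuclear ribonucleoproteins, and 3 polypyrimidine tract binding proteins (PTBP1 to PTBP3). They were taken by gene symbol from a table of 38637 genes, and each symbol was found there. The table holds RNA sequencing of OVCAR8 cells, an ovarian cancer cell line of wild type genotype as labelled, kept for 72 h in DMSO (3 samples) or in 2 nM pladienolide B (3 samples). Pladienolide B binds SF3B1, a subunit of the U2 snRNP that recognises the branch point of introns, and DMSO is its solvent. The labels do not say whether the samples of a group came from separate cultures, so the p-values measure only the spread between these samples, which may be technical. All 6 samples came from 1 cell line at 1 dose and 1 time.

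SR proteins bind exonic enhancers through RNA recognition motifs and recruit the spliceosome through arginine-serine domains, so that an exon is more often included. Most hnRNPs coat nascent transcripts and many act from silencer elements, so that the balance of SR proteins and hnRNPs at an exon helps to set its use. Many of these genes control their own level by splicing: too much protein switches their own transcript to a form with a premature stop codon, which nonsense-mediated decay removes.

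The deposited value of a gene in a sample is a number of reads adjusted by the authors to a common library size, called adjusted reads here. The underlying library held between 22621338 and 26130882 reads on genes, and the adjusted totals lay between 24088298 and 25206393. The labelled cell type was checked on fixed marker lists: of 12 epithelial and serous ovarian cancer markers, 5 had a mean above 1000 adjusted reads (KRT8, KRT18, KRT7, PAX8 and MSLN), whereas WT1, MUC16, KRT19, CDH1, SOX17 and MECOM reached at most 41.6 in any sample. The summed leukocyte markers reached 57 adjusted reads at most, with CD3E at 0 in all 6 samples, and the endothelial markers reached 104 at most. The fibroblast list summed to between 6947 and 7123 in DMSO and between 5836 and 6549 in pladienolide B, nearly all of it COL1A1, with the stromal marker DCN between 0 and 2.1. A fall in such bulk values does not show whether fewer cells used a gene or each cell held less of its RNA.

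Pladienolide B moved the splicing regulators in both directions, by small amounts. Of the 37 genes, all of which passed the filter on low values, 11 rose and 11 fell under pladienolide B, and 15 did not pass the threshold of 0.05 on the adjusted p (limma on log2 values, adjusted over all genes tested). Across all 16178 genes tested, 22.4% were called higher, 25.2% lower and 47.6% in either direction, against 59.5% of the splicing regulators. Highly expressed genes are called more often: of the 36 splicing regulators with a mean of at least 700 adjusted reads, 61.1% were called, beside 62.0% of all 6949 genes at that level, a limit set after the values had been seen. Above that limit the splicing regulators were called about as often as all genes were. The limit is only a floor, and the genes were not matched on abundance above it.

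The sizes were modest. The median log2 difference, pladienolide B minus DMSO, was -0.03 over the 37 genes and 0.00 over all genes, and the median size without sign was 0.14 against 0.23. Called changes of 1.5-fold or more were found for HNRNPDL and PTBP2 alone, 5.41% of the splicing regulators beside 11.5% of all genes tested, and the largest fold size among the other 35 was 1.36. No splicing regulator changed 2-fold, whereas 635 genes did. The groups of 3 samples did not overlap for 26 of the 37 genes, or 70.3%, beside 55.3% of all genes tested. This share was not taken for other genes of like abundance, so no excess is read from it.

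**Figure D1:**
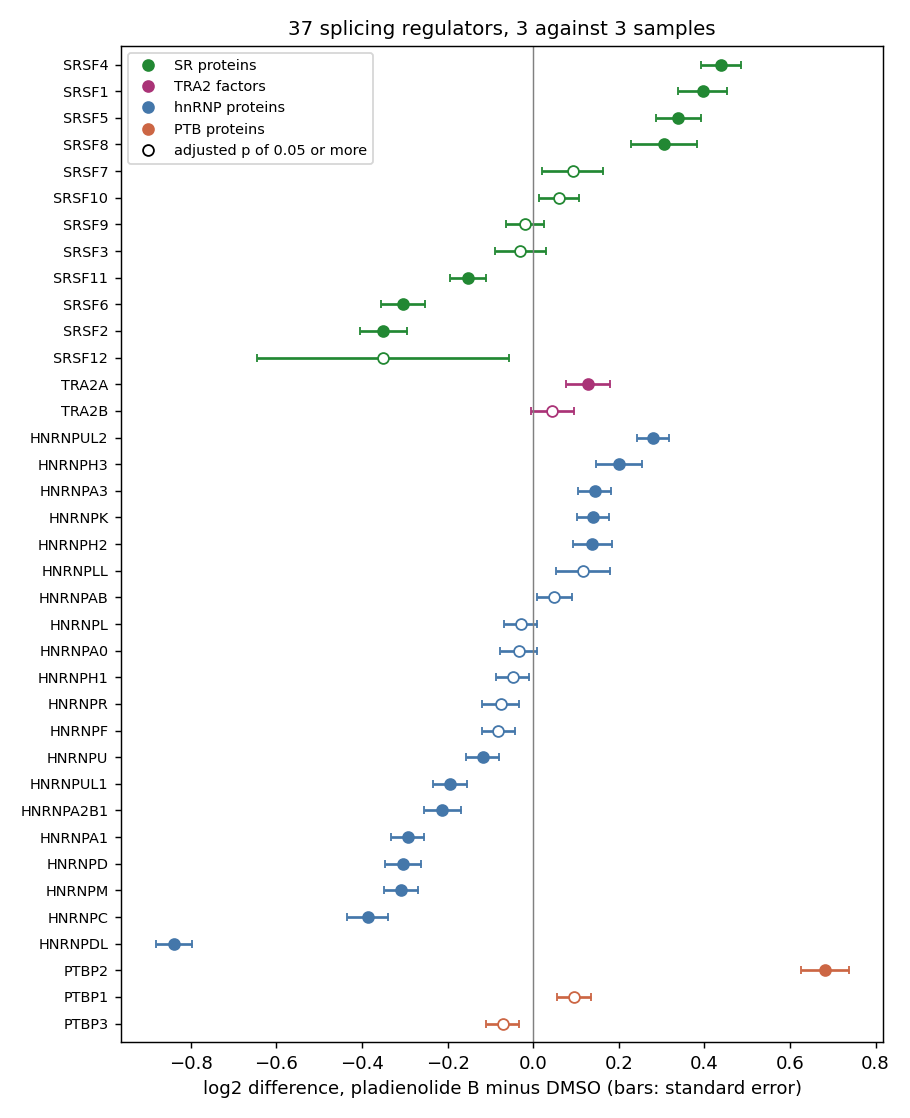
Difference in log2(adjusted reads + 1) between pladienolide B and DMSO (x axis) for each of the 37 splicing regulators (rows, by family), as the estimate from 3 against 3 samples with its standard error; open points had an adjusted p of 0.05 or more. HNRNPDL at -0.84 and PTBP2 at 0.68 stand farthest from 0, and the SR proteins spread to both sides.

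Among the hnRNPs, 8 of 20 fell, 5 rose and 7 did not pass, with a median log2 difference of -0.06. HNRNPDL, a close relative of the AU-rich element binding protein HNRNPD, showed the largest change of the whole set. Its adjusted reads were 7223, 7926 and 7364 in DMSO and 4228, 4206 and 4137 in pladienolide B. The lowest DMSO sample was well above the highest pladienolide B sample, and the mean fell from 7504 ± 372 to 4190 ± 47.6 (SD, n = 3), to 55.8% of DMSO (log2 difference -0.84, SE 0.043, adjusted p = 1.8e-10). HNRNPDL lies on the minus strand of chromosome 4 (hg38, chr4:82422564-82430462).

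HNRNPC, which binds uridine tracts and competes with the 3′ splice site factor U2AF2, had 15093, 17227 and 15116 adjusted reads in DMSO and 12434, 11766 and 12024 in pladienolide B. The groups were apart, and the level fell to 76.4% of DMSO (log2 difference -0.39, SE 0.049, adjusted p = 6.4e-06). HNRNPM, a binder of GU-rich sequence, was measured at 11981, 12251 and 11704 against 9408, 9804 and 9793. It fell by 0.31 on the log2 scale (SE 0.039, adjusted p = 6e-06), to 80.7% of DMSO.

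HNRNPD, also known as AUF1, promotes the decay of transcripts with AU-rich elements. It was at 8011, 8519 and 7885 adjusted reads in DMSO and at 6535, 6476 and 6742 in pladienolide B, a log2 difference of -0.31 (SE 0.042, adjusted p = 1.4e-05). HNRNPD and HNRNPDL thus both fell, HNRNPDL by more.

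The A/B hnRNPs, which bind UAG-containing silencers, did not move together. HNRNPA1 was measured at 41146, 42435 and 40809 adjusted reads in DMSO and at 34042, 33513 and 33994 in pladienolide B, a fall to 81.6% (log2 difference -0.29, SE 0.039, adjusted p = 1.2e-05). HNRNPA2B1 was at 21379, 23227 and 21028 against 19183, 18693 and 18739, a fall to 86.3% (log2 difference -0.21, SE 0.043, adjusted p = 0.00065). HNRNPA3 went the other way, with 7976, 8388 and 7984 in DMSO and 9050, 8791 and 9067 in pladienolide B, a rise to 110.5% (log2 difference 0.14, SE 0.039, adjusted p = 0.0061). None of the 3 genes had overlapping groups. The call of HNRNPA3 was lost when limma was run without the variance trend (adjusted p = 0.052). HNRNPA0 did not pass, with a log2 difference of -0.03. HNRNPAB shares the name but is taken below as a relative of HNRNPD and HNRNPDL, and it did not pass either (0.05). HNRNPA1 has many processed copies in the genome, with which reads could be shared, and the copies listed here were small beside it: HNRNPA1L2 had a mean of 358.4 adjusted reads in DMSO and HNRNPA1P10 77.0.

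The scaffold attachment family split as well. HNRNPUL1 fell, from 7061, 6904 and 7058 adjusted reads in DMSO to 6126, 5982 and 6269 in pladienolide B (log2 difference -0.19, SE 0.039, adjusted p = 0.00059), and an antisense gene that shares 667 bases with it, LOC105372401, fell as well (log2 difference -0.38). HNRNPU, the chromatin-associated member, was at 92.2% of DMSO (log2 difference -0.12, SE 0.039, adjusted p = 0.02). That call was lost in 5 of the 16 alternatives, among them leaving out DMSO replicate 1 (adjusted p = 0.066), pladienolide B replicate 1 (0.063) or pladienolide B replicate 2 (0.076). HNRNPUL2 rose, from 4780, 4772 and 4816 to 5811, 5846 and 5788, with standard deviations of 23.4 and 29.2, the smallest relative to the mean among the 37 genes in either group (log2 difference 0.28, SE 0.038, adjusted p = 1.4e-05). The table also lists the readthrough gene HNRNPUL2-BSCL2, which shares 14755 bases with HNRNPUL2 on the same strand and had a log2 difference of 0.29, and the reads of the pair could be split between them in more than 1 way.

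The remaining called hnRNPs rose by little. HNRNPK, which binds C-rich RNA through KH domains and was the second highest of the set per kilobase, was at 22100, 22096 and 21548 in DMSO and at 23812, 24201 and 24408 in pladienolide B (log2 difference 0.14, SE 0.038, adjusted p = 0.0059). HNRNPH3 was at 2597, 2822 and 2427 against 3048, 2899 and 3059 (log2 difference 0.20, SE 0.053, adjusted p = 0.0049). HNRNPH2 was at 2049, 2139 and 2005 against 2308, 2217 and 2288 (log2 difference 0.14, SE 0.046, adjusted p = 0.022). The call of HNRNPH2 was lost in 5 of the 16 alternatives, among them leaving out replicate 1 or 3 of either group (adjusted p from 0.063 to 0.093).

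The last pair belongs to the H/F group, which binds runs of guanines, and the higher expressed genes of that group did not pass: HNRNPH1 had a log2 difference of -0.05 (adjusted p = 0.33) and HNRNPF of -0.08 (adjusted p = 0.097). Both HNRNPH3 and HNRNPH2 overlap other genes. RUFY2, opposite to HNRNPH3 over 2085 bases, rose by 0.33, and the readthrough gene RPL36A-HNRNPH2, which contains HNRNPH2, had a log2 difference of -0.11 that did not pass. HNRNPL and HNRNPLL, binders of CA repeats, and HNRNPR did not pass, with log2 differences of -0.03, 0.12 and -0.08.

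**Figure D2:**
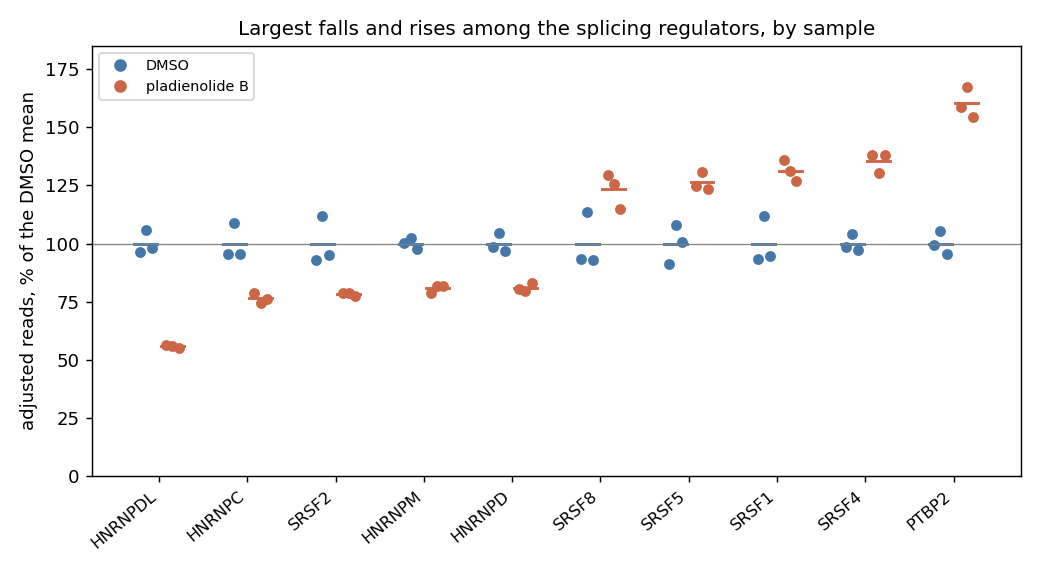
Adjusted reads in each sample as a percentage of the gene's DMSO mean (y axis, from 0) for the 5 largest called falls and 5 largest called rises among the splicing regulators, with points for samples and dashes for group means (n = 3). HNRNPDL lies at 55.8% of DMSO and PTBP2 at 160.3%, and in none of the 10 genes do the groups overlap.

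The PTB proteins repress exons from CU-rich elements near 3′ splice sites. PTBP1 is the form of most dividing cells and PTBP2 the neuronal form, and PTBP1 is known to keep PTBP2 low by making cells skip exon 10 of PTBP2, which shifts the reading frame and sends the transcript to decay. PTBP1 controls its own level through skipping of the matching exon 11. In GENCODE v44 both exons are absent from transcripts annotated as targets of nonsense-mediated decay, and both are 34 bases long. They are shown here, with the exon in capitals and the 60 bases of intron before it in lower case. The branch points of these exons were not located and may lie outside the bases shown. The stretches are chr1:96806359-96806452 for PTBP2 and chr19:807809-807902 for PTBP1 (hg38, plus strand):
PTBP2 exon 10: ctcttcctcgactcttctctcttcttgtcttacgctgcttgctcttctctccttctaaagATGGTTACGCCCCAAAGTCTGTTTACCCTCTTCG
PTBP1 exon 11: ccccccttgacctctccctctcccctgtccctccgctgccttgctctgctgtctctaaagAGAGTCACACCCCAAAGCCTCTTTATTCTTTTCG

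The exons agree at 25 of 34 positions and the intron ends at 26 of 60. The letters TCTT, a short form of the PTB motif searched on the transcribed strand with overlapping matches counted, occur 6 times in the 60 bases before PTBP2 exon 10 and 0 times in those before PTBP1 exon 11. Of the 303 intron ends of this length before exons of the 37 genes' canonical transcripts, 55.4% hold TCTT at least once and 5.0% hold it 3 times or more, and 6 was the highest number. This is a description of the letters. The files hold reads per gene and not per exon, so use of these exons was not measured here.

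PTBP2 had the largest rise of the 37 genes. It was measured at 1036, 1100 and 994.9 adjusted reads in DMSO and at 1658, 1748 and 1613 in pladienolide B, with every pladienolide B sample above every DMSO sample. The mean rose from 1044 ± 52.8 to 1673 ± 69.0 (SD, n = 3), to 160.3% of DMSO (log2 difference 0.68, SE 0.056, adjusted p = 4.4e-08). PTBP1 lay between 14180 and 14614 adjusted reads in DMSO and between 15098 and 15764 in pladienolide B. Its groups did not overlap, and its log2 difference of 0.10 (SE 0.039) had an adjusted p of 0.05, just above the threshold, and passed in 8 of the 16 alternative analyses. PTBP1 shares 1351 bases with PLPPR3 on the opposite strand. PTBP3, which is best known from blood cells, did not pass (log2 difference -0.07, adjusted p = 0.15). PTBP1 protein was not measured, and the cause of the rise in PTBP2 was not tested.

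Per kilobase of canonical transcript, PTBP2 remained low among the 37 genes, at 314.3 ± 15.9 adjusted reads per kilobase in DMSO and 503.7 ± 20.8 in pladienolide B, which placed it at rank 34 and rank 32. PTBP1 moved from rank 8 to rank 4, while HNRNPC moved from rank 4 to rank 9 and HNRNPDL from rank 18 to rank 26. HNRNPA1 was the highest in both groups, at 11070 ± 229 per kilobase in DMSO, followed by HNRNPK at 7586 ± 110 and HNRNPA2B1 at 6030 ± 326, gaps larger than the spread. HNRNPC at 4996 ± 387, HNRNPM at 4836 ± 111 and HNRNPL at 4778 ± 66.2 did not differ beyond their spread in DMSO.

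Of the 12 SR protein genes, 4 rose, 3 fell and 5 did not pass, and the median log2 difference was 0.02. DMSO replicate 2 stood apart for this family: it was the highest DMSO sample for 11 of the 12 genes, and for 30 of all 37 splicing regulators, where it was the highest for 41.1% of all genes tested. The median SR gene was 0.21 higher on the log2 scale in DMSO replicate 2 than in the other DMSO samples, against 0.01 for all genes. Values without this sample are given beside those of the SR genes. Without it 15 splicing regulators were higher and 12 lower, with SRSF7, SRSF10, TRA2B and PTBP1 added to the rises and HNRNPF to the falls, and each of the 22 called with all samples was still called.

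SRSF4, known as SRp75, had the largest rise in the family. Its adjusted reads were 2436, 2576 and 2399 in DMSO and 3414, 3222 and 3414 in pladienolide B, a level of 135.6% of DMSO (log2 difference 0.44, SE 0.046, adjusted p = 7.4e-07, and 0.47 without DMSO replicate 2). SRSF1, the founding member, which acts in constitutive and alternative splicing, was at 4564, 5462 and 4618 against 6627, 6406 and 6184 (log2 difference 0.40, SE 0.057, adjusted p = 2.6e-05, and 0.48 without DMSO replicate 2). The groups of both genes were apart even with the high DMSO sample.

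SRSF5, known as SRp40, was at 3875, 4581 and 4274 adjusted reads in DMSO and at 5286, 5550 and 5236 in pladienolide B (log2 difference 0.34, SE 0.053, adjusted p = 5.7e-05, and 0.40 without DMSO replicate 2). SRSF8, a gene with a single exon that arose as a copy of SRSF2, was at 746.1, 907.1 and 739.6 against 1033, 1000.1 and 917.0. Its lowest pladienolide B sample was only just above DMSO replicate 2 (log2 difference 0.31, SE 0.077, adjusted p = 0.0034, and 0.40 without DMSO replicate 2).

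SRSF2, known as SC35, binds both C-rich and G-rich exonic enhancers. It went the other way from its copy, with 6968, 8370 and 7135 adjusted reads in DMSO and 5902, 5882 and 5785 in pladienolide B, 78.2% of DMSO (log2 difference -0.35, SE 0.055, adjusted p = 6.2e-05, and -0.27 without DMSO replicate 2). MFSD11, which shares 778 bases with SRSF2 on the opposite strand, fell by 0.28 on the log2 scale. SRSF6, known as SRp55, was at 3096, 3416 and 2949 against 2574, 2575 and 2499 (log2 difference -0.30, SE 0.052, adjusted p = 0.00013, and -0.25 without DMSO replicate 2). SRSF11, which associates with the U2AF dimer, was at 6736, 6449 and 6504 against 5688, 6129 and 5908 (log2 difference -0.15, SE 0.042, adjusted p = 0.0063, and -0.17 without DMSO replicate 2). Its call was lost without pladienolide B replicate 1 (adjusted p = 0.052) and when limma was run without the variance trend (adjusted p = 0.057).

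SRSF3 and SRSF7, the small SR proteins that also act as adaptors for mRNA export, did not pass with all samples. SRSF7 had a log2 difference of 0.09 (adjusted p = 0.31) and SRSF3 of -0.03 (adjusted p = 0.71). Without DMSO replicate 2 the value of SRSF7 was 0.21, which passed, and that of SRSF3 changed sign to 0.06, which did not. SRSF10, which turns into a repressor when it loses phosphate, and SRSF9 had log2 differences of 0.06 and -0.02 and did not pass. Without DMSO replicate 2 the value of SRSF10 was 0.10, which passed (adjusted p = 0.044), and that of SRSF9 was 0.005, and the sign of SRSF9 also changed without pladienolide B replicate 2. SRSF9 shares 2078 bases with GATC on the opposite strand. SRSF12 was nearly unexpressed, with 21.5 to 41.3 adjusted reads across the samples and a log2 difference of -0.35 with an SE of 0.294 (adjusted p = 0.35, and -0.19 without DMSO replicate 2). It lies wholly within the span of PM20D2 on the opposite strand, which had a mean of 5744 adjusted reads in DMSO and 4377 in pladienolide B.

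**Figure D3:**
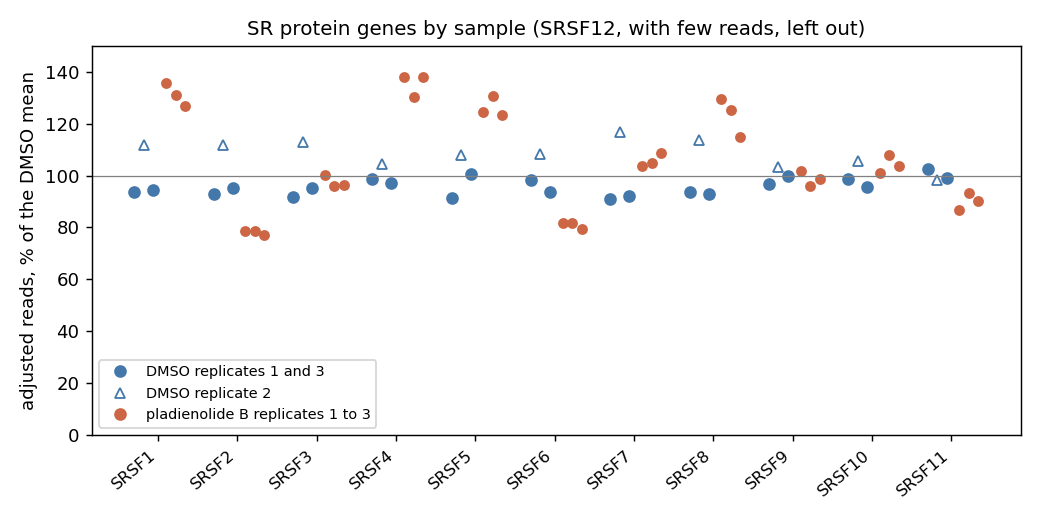
Adjusted reads of 11 SR protein genes in each sample as a percentage of the gene's DMSO mean (y axis, from 0), with DMSO replicate 2 as an open triangle. The triangle is above the other DMSO samples in 10 of the 11 genes drawn, and SRSF1, SRSF4, SRSF5 and SRSF8 lie above all DMSO samples in pladienolide B while SRSF2, SRSF6 and SRSF11 lie below them.

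Several SR genes and TRA2B carry a cassette exon, known as a poison exon, that introduces a premature stop codon when included. By GENCODE v44, inclusion of such an exon sets transcripts annotated for decay apart from the canonical ones. The start of 1 such exon is shown for each of TRA2B, SRSF3, SRSF7 and SRSF6, in transcript direction. The first in-frame stop codon is in capitals. Such exons are the switches through which the family controls its own level. The exons span chr3:185931577-185931852 (TRA2B, minus strand, 276 bases), chr6:36599821-36600276 (SRSF3, plus strand, 456 bases), chr2:38748898-38749346 (SRSF7, minus strand, 449 bases) and chr20:43459153-43459420 (SRSF6, plus strand, 268 bases) in hg38:
TRA2B: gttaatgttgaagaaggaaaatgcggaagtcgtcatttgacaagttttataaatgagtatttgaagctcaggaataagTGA
SRSF3: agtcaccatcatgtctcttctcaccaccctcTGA
SRSF7: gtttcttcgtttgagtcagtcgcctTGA
SRSF6: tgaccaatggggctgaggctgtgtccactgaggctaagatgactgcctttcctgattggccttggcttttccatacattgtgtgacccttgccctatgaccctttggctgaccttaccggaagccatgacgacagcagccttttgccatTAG

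The stop codon begins at base 79 of the exon in TRA2B, 32 in SRSF3, 26 in SRSF7 and 150 in SRSF6. A gene's reads in the table may include both forms, so a rise can hold more of the decay form as well as more of the coding form, and these were not told apart here. Of the 4 genes shown, SRSF6 fell and the other 3 did not pass. The same search found exons included in transcripts annotated for decay in SRSF4, SRSF9, SRSF11, HNRNPH1, HNRNPL, HNRNPLL and PTBP1, which are not shown. The search did not require a stop codon within the exon, and it located none in SRSF4. Among these, SRSF4 rose (log2 difference 0.44), SRSF11 fell (-0.15) and the others did not pass. HNRNPDL has 4 transcripts annotated for decay but no cassette exon of this kind by the same search. The search kept only exons between neighbouring canonical exons that overlap no exon of a protein-coding transcript. It would miss other forms of decay switch, so none is said to be absent from HNRNPDL.

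The TRA2 factors activate exons with purine-rich GAA repeats. TRA2A lay between 1418 and 1520 adjusted reads in DMSO and between 1561 and 1670 in pladienolide B, with a log2 difference of 0.13 (SE 0.051) and an adjusted p of 0.049 that held in 7 of the 16 alternatives. The call was lost with any 1 sample left out other than DMSO replicate 2 (adjusted p from 0.057 to 0.18). TRA2B lay between 3421 and 3908 against 3643 and 3753 and did not pass (log2 difference 0.05, adjusted p = 0.49), though without DMSO replicate 2 its value was 0.11 and passed.

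Summed over each family, the hnRNP reads were lower in pladienolide B, and the SR reads were not. The 20 hnRNP genes summed to 215399, 224032 and 212096 adjusted reads in DMSO and to 197476, 194656 and 198589 in pladienolide B, or 90.7% of DMSO. The 12 SR genes summed to 44259, 50314 and 44759 against 47549, 47559 and 46819, or 101.9%, with the highest sum in DMSO replicate 2. The hnRNP groups did not overlap, and the SR groups overlapped through DMSO replicate 2. Without that sample, an alternative chosen after seeing the data, the SR sum was 106.3% of DMSO with no overlap and the hnRNP sum 92.1%.

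The ratio of the hnRNP sum to the SR sum was 4.87, 4.45 and 4.74 in DMSO and 4.15, 4.09 and 4.24 in pladienolide B, lower in each pladienolide B sample than in any DMSO sample. The sums are weighted to the genes with most reads, of which HNRNPA1, HNRNPA2B1, HNRNPU and HNRNPC fell and HNRNPK rose. The 3 PTB genes summed to 20863 ± 281 in DMSO and 22213 ± 293 in pladienolide B, and the TRA2 factors to 5055 ± 325 and 5299 ± 82.9 (SD, n = 3). All 37 genes together took 1.15% to 1.19% of adjusted reads in DMSO and 1.12% to 1.14% in pladienolide B.

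**Figure D4:**
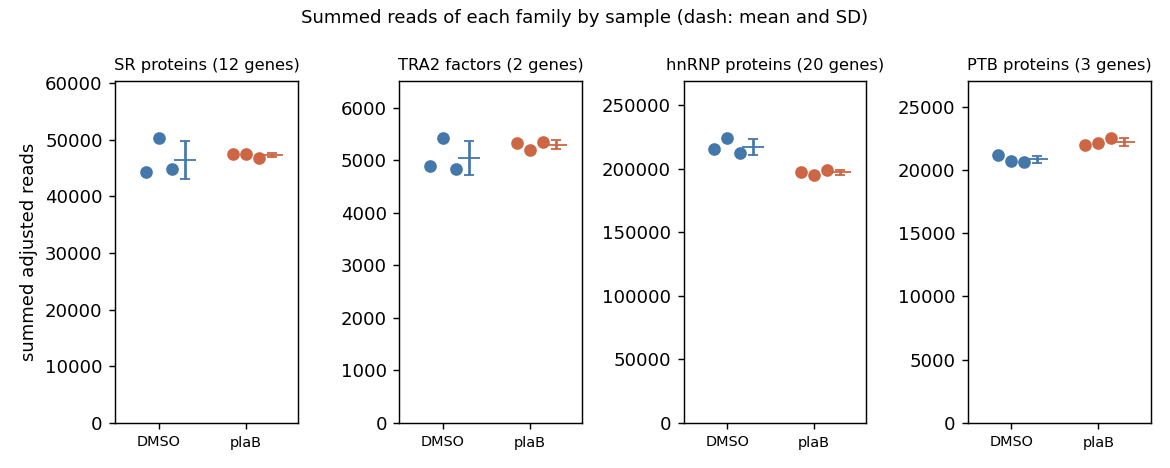
Summed adjusted reads of each family (y axis of each panel, from 0) in each DMSO and pladienolide B (plaB) sample, with the group mean and SD beside the points (n = 3). The hnRNP sum is at 90.7% of DMSO with no overlap, while DMSO replicate 2 has the highest SR sum of the 6 samples and the SR groups overlap.

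The balance between close relatives was followed as the ratio within a sample, which does not depend on library scaling. In 20 of 24 pairs the log2 ratio did not overlap between groups. Pairs of other genes were not examined, single genes of the table already had no overlap in 55.3% of cases, and 16 of the 31 genes used are in more than 1 pair, so nothing particular to related genes is read from this count. With 3 against 3 samples the exact permutation test (two-sided) cannot go below p = 0.1, which each of these 20 pairs reached, with an adjusted p of 0.12 over the 24 pairs, so no pair could pass a threshold of 0.05 and the ratios are given by size.

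The largest shift was that of HNRNPDL to HNRNPAB, with log2 ratios of 0.14, 0.20 and 0.19 in DMSO and -0.74, -0.69 and -0.72 in pladienolide B. The ratio of PTBP2 to PTBP3 rose from -2.42, -2.29 and -2.46 to -1.64, -1.59 and -1.68, and that of PTBP1 to PTBP2 went from 3.82, 3.70 and 3.83 to 3.19, 3.11 and 3.29. Within the SR proteins, the log2 ratio of SRSF4 to SRSF6 went from -0.35, -0.41 and -0.30 to 0.41, 0.32 and 0.45. SRSF4 had the largest rise in the family and SRSF6 fell, so this ratio follows from their own values and is no further result.

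The ratio of SRSF2 to its copy SRSF8 differed by -0.66, that of SRSF5 to SRSF6 by 0.64, that of HNRNPUL1 to HNRNPUL2 by -0.47 and that of HNRNPA1 to HNRNPA3 by -0.44. The ratio of HNRNPA1 to HNRNPA2B1 differed by only -0.08. The pairs with overlapping groups were SRSF4 with SRSF5 (0.10), SRSF10 with SRSF12 (0.41), TRA2A with TRA2B (0.08) and HNRNPF with HNRNPH1 (-0.03).

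**Figure D5:**
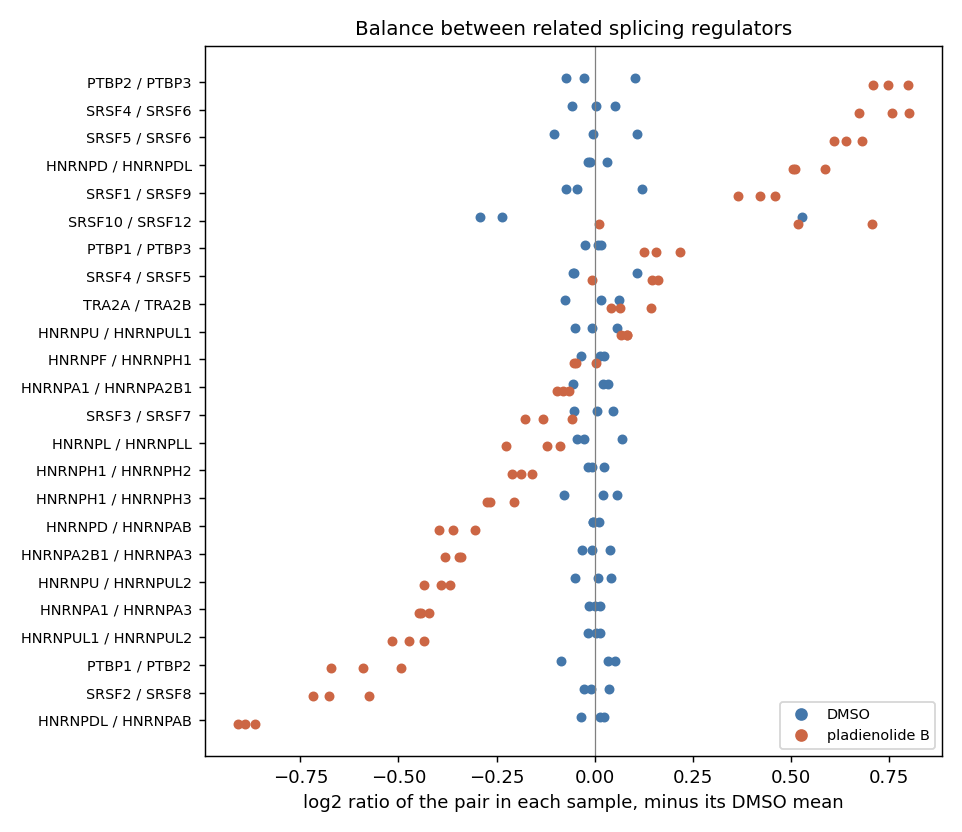
Log2 ratio of adjusted reads in 24 pairs of related splicing regulators in each sample, minus the pair's DMSO mean (x axis), with 3 DMSO and 3 pladienolide B points per row. HNRNPDL to HNRNPAB shifts most to the left (-0.89) and PTBP2 to PTBP3 most to the right (0.75), and 20 of the 24 rows have no overlap.

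Genes around the SR and hnRNP families were counted in lists, and no list was tested as a set. Of all genes tested, 22.4% were called higher and 25.2% lower. Of genes with a mean of at least 700 adjusted reads, 62.0% were called in either direction. Among 16 hnRNPs under other names, 5 rose, 6 fell and 5 did not pass, with a median log2 difference of -0.07. EWSR1, an RNA-binding protein best known from gene fusions in sarcoma, rose by 0.38 on the log2 scale, whereas TARDBP, which encodes TDP-43, fell by 0.45 and RBMXL1 by 0.69.

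Of 27 SR-related proteins, 12 rose, 3 fell and 12 did not pass (median 0.08), led by THRAP3 (0.41) and CLASRP (0.36) upward and by LUC7L (-0.46) and RBM39 (-0.39) downward. Of 43 other splicing regulators tested out of 46, 11 rose, 10 fell and 22 did not pass (median 0.02), with the largest called falls in MSI2 (-0.60) and RBM15 (-0.51). The largest called rises in that list were in genes with few reads, RBFOX3 at 11.1 to 33.3 adjusted reads and SRRM3 at 43.1 to 82.2.

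Another list held mainly kinases, phosphatases and import receptors of SR and hnRNP proteins, and also PNISR, which is none of these and did not pass. Of its 19 tested genes, 5 rose, 7 fell and 7 did not pass (median -0.11). TOP1, a topoisomerase that can phosphorylate SR proteins, rose by 0.43, and TNPO1, the importin of HNRNPA1, by 0.35. The kinase gene PRPF4B fell by 0.45 on the log2 scale and the phosphatase gene PPP1CA by 0.36. Of the 15 nonsense-mediated decay factors, which act on the poison exon transcripts, 6 rose, 3 fell and 6 did not pass (median 0.04), with called changes in SMG8 (0.32), UPF3A (-0.33) and SMG6 (-0.37).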

How the data were processed

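RNA was sequenced in 6 samples, and the labels and methods together name HISAT2, HTSeq 0.12.4 and DESeq2. The labels give hg19 and the methods hg38. The positions in the table are those of hg38: 99.9% of the 26990 symbols shared with GENCODE 44 overlap their position there, and so do all 37 splicing regulators. The strand setting of the counting and the gene models are not given in the sources used here, so reads of genes that overlap on opposite strands could not be told apart.

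The authors deposited 1 value per gene and sample, a signal adjusted for library size, together with fold changes and p-values of their own comparison, which were not used. The values have the form of quantile-adjusted counts of edgeR with a common dispersion of 0.0027. Inverting this gave reads that were whole to a tolerance of 0.02 in 99.998% of 96432 values from 10 upward and in 99.997% of 38801 values from 0.5 to 10, and adjusting them again differed from the deposited values by at most 4.9e-05. Count tests on these recovered reads were used only as alternatives, and edgeR with TMM called 7738 genes beside 7695 for the main test. The plan allowed for either unit.

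The main test was limma 3.58.1 on log2(value + 1) with a trend of the variance, two-sided, with Benjamini-Hochberg adjustment over the 16178 genes kept by filterByExpr of edgeR 4.0.16 (a minimum of 10 and a total of 15). Fold changes are on that scale, which makes those of low genes smaller. The threshold was an adjusted p of 0.05. The fit was tested on simulated data with 100 genes changed 1.5-fold and 100 changed 2-fold. It recovered 73% of the former and 89% of the latter, and 6.36% of its calls were false. Far fewer genes were changed there than were called in the real data. Alternatives were no filter, a mean of at least 50, a pseudocount of 0.1, no variance trend, the replicate number as a block, edgeR with TMM, RLE or upper-quartile factors, DESeq2 1.42.0, median-ratio scaling and leaving out each sample.

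The 37 genes, the related lists and the pairs were chosen with earlier results of these data known. Values per sample are given for up to 10 called rises and 10 called falls without overlap, and in each other list the 2 largest called rises and falls without overlap are named, apart from 2 genes that are not reported here. Levels per kilobase use the length of the canonical GENCODE transcript. Exon sequences were read from hg38 by GENCODE positions. The replicate numbers did not pair the samples.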

Additional observations from a re-analysis of the deposited data

How the results depend on the processing

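Under 16 alternatives, 551 of 591 values of the splicing regulators kept their direction and side of the threshold, 24 lost the call, 12 gained it and 4 changed sign. Of the 22 called genes, 15 kept the call throughout, including HNRNPDL (log2 difference from -0.87 to -0.80) and PTBP2 (0.65 to 0.72). Without the variance trend, 6 genes were higher and 9 lower. Among the calls lost there were HNRNPA3 (adjusted p = 0.052), SRSF8 (0.056), SRSF11 (0.057) and HNRNPH3 (0.066). With each sample left out in turn, 9 to 15 genes were higher and 9 to 12 lower. SRSF9 changed sign to 0.004 with upper-quartile factors, and with 1 sample left out it ranged from -0.042 to 0.005 and SRSF3 from -0.090 to 0.062. The sign changes of SRSF9 were without DMSO replicate 2 (0.005) and without pladienolide B replicate 2 (0.002), and that of SRSF3 was without DMSO replicate 2. The cause of these differences was not tested. The calls of TRA2A held in 7 of 16 alternatives and those of HNRNPH2 and HNRNPU in 11. SRSF12 failed the filter on a mean of 50.

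Samples with the same replicate number did not deviate together (correlations of -0.018, -0.017 and 0.003), so the numbers give no pairing. With the replicate number as a block, 10 genes were higher and 10 lower, and 7349 of all genes passed. The small number of samples limits the precision, and SRSF12, at 21.5 to 41.3 adjusted reads, had the largest standard error of the set (0.294).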
